A study of Mus musculus with 9 samples.

Results

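The germ cells of TDP-43 cKO mice were compared directly with those of NELF-B cKO mice, with each mouse as a single replicate. A barcode was taken as a germ cell if it held over 1000 detected genes, under 10% of its UMIs from the mitochondrial genome, a UMI in at least 3 of the 10 germ cell genes Crabp1, Dmrt1, Sohlh1, Stra8, Rhox13, Prdm9, Dmc1, Prss50, Rec8 and Sycp3, and at most 3 UMIs of Piwil1, a PIWI protein gene of later spermatocytes. The rule took 8398 of the 19043 barcodes of the 5 cKO mice that passed the limits on genes and mitochondrial UMIs, of 45132 such barcodes in all 9 mice. The 2 NELF-B cKO mice gave 1660 and 929 of them, whereas the 3 TDP-43 cKO mice gave 1576, 1971 and 2262. In the 4 control mice the rule took 3991 barcodes. No barcode was left out for a UMI of either targeted gene.

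All 9 libraries were droplet 3′ RNA-seq of whole testes at postnatal day 24, a juvenile age at which meiosis is under way. Both cKO lines carry 1 floxed and 1 null allele of the targeted gene and the Stra8-iCre transgene, which drives a recombinase in spermatogonia (SG). The NELF-B line lacks the first 4 exons of Nelfb in the recombined cells, and its floxed allele came from C57BL/6N mice. The TDP-43 line lacks exon 3 of Tardbp, and its floxed allele came from a mixture of C57BL/6N and C57BL/6J. Both were backcrossed to C57BL/6J, so the deletion and any other difference between the lines cannot be told apart. The controls were littermates or non-littermates. The somatic cells around the germ cells do not recombine in either line.

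NELF is a complex of 4 subunits that holds RNA polymerase II in a paused state shortly after it has begun a transcript, and NELF-B is one of those subunits. NELF also binds the cap-binding complex and takes part in forming the 3′ ends of replication-dependent histone mRNAs, which normally end in a stem loop without a poly(A) tail. TDP-43, which Tardbp encodes, binds nucleic acids, regulates splicing, and limits its own mRNA. SG divide by mitosis and then enter meiosis, in which chromosomes are broken, paired and recombined in spermatocytes.

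Several differences between the libraries bear on the comparison. The chosen barcodes made up 29.4% and 31.2% of the barcodes past the filter in NELF-B cKO, against 39.9%, 65.2% and 65.5% in TDP-43 cKO. The median chosen barcode held 10116 and 21693 UMIs in NELF-B cKO, against 31774, 17009 and 18319.5 in TDP-43 cKO. Depth was therefore unequal within both groups, and a deeper barcode meets the marker rule more easily. Among barcodes thinned to 4000 UMIs, 40.3% and 23.5% in NELF-B cKO and 27.2%, 54.7% and 53.3% in TDP-43 cKO met it, so that the groups overlapped at equal depth. That share is over the 3167 and 2622 barcodes in NELF-B cKO and 3604, 2561 and 3027 in TDP-43 cKO that were deep enough. Just inside the rule, with exactly 3 of the marker genes, lay 241 and 128 barcodes in NELF-B cKO and 159 to 222 per mouse in TDP-43 cKO. Just outside it, with exactly 2, lay 528 and 283 in NELF-B cKO and 222 to 300 per mouse in TDP-43 cKO. Between 94.0% and 98.8% of the chosen barcodes of each mouse held at least 3 of 10 other germ cell genes that the rule did not use, as did 8.94% to 53.2% of the barcodes left out in the cKO mice and 55.6% to 79.6% of those left out in the controls. Pairs of libraries shared 0 to 4 barcode sequences among the chosen ones.

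A pair of libraries stood apart by RNA of somatic cells. The 36 marker genes of Sertoli, Leydig, myoid, endothelial, immune and interstitial cells summed to 1192 and 2383 CPM (the usual per-library scaling of counts, here of the UMIs summed over the chosen barcodes) in NELF-B cKO replicates 1 and 2, to 3034, 1296 and 1506 CPM in TDP-43 cKO replicates 1 to 3, and to 587 to 978 CPM in the control mice. NELF-B cKO replicate 2 and TDP-43 cKO replicate 1 were thus the highest of their groups. None of the 36 markers was at 0 UMIs in any mouse, 9 were higher in every TDP-43 cKO mouse than in both NELF-B cKO mice, and 3 were higher in both NELF-B cKO mice. Over all genes tested, the shares apart in these directions were 14.8% and 11%. NELF-B cKO replicate 1 stood apart in another way: genes of round spermatids, the haploid cells after meiosis, summed to 3018 CPM there, to 52.1 CPM in NELF-B cKO replicate 2, to 24.7 to 104 CPM in the TDP-43 cKO mice and to 508 to 2803 CPM in the control mice. The 12 round spermatid genes had a median log2 fold change of -3.08 for TDP-43 cKO over NELF-B cKO and of 0.41 once NELF-B cKO replicate 1 was left out, and no member separated the groups. In nearly empty droplets of 1 to 100 UMIs, which hold mostly free RNA, the same genes summed to 3749 and 101 CPM in NELF-B cKO, 37.0 to 186 CPM in TDP-43 cKO and 586 to 3699 CPM in the controls, so their level there was again highest in NELF-B cKO replicate 1, and the part of free RNA was not tested. In summed counts, fewer barcodes of a stage and less RNA per barcode cannot be told apart.

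**Figure D1:**
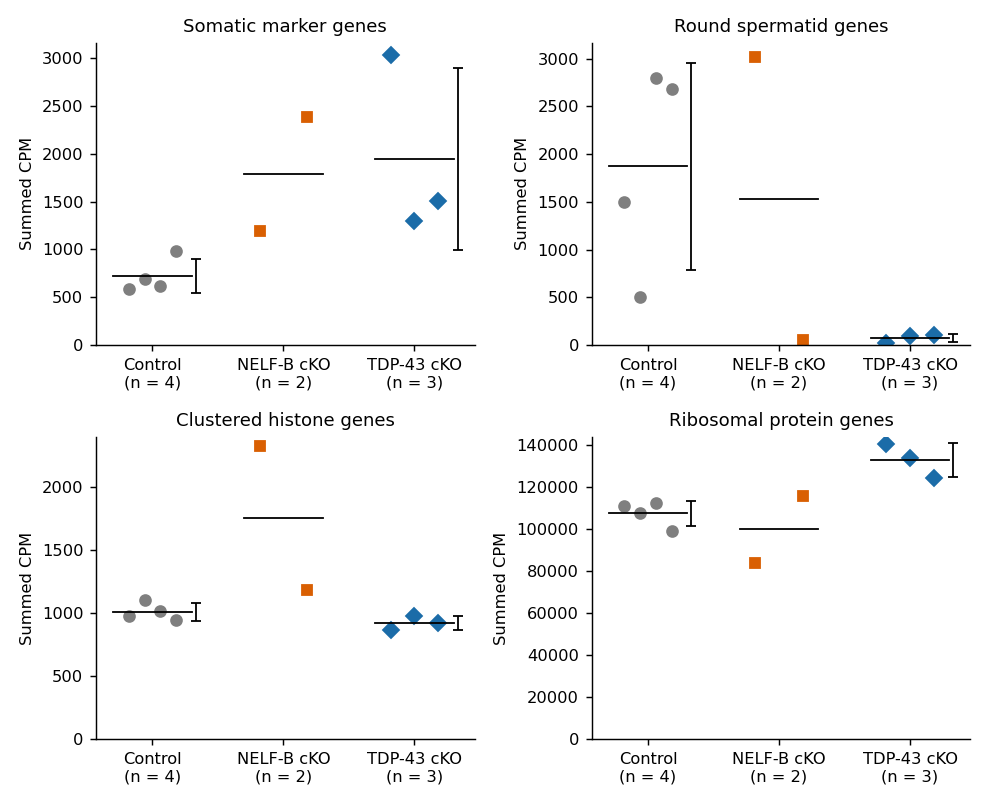
Summed CPM of 4 gene lists in the chosen barcodes of each mouse (vertical axes from 0, one point per mouse, line at the group mean, bars 1 SD for groups of more than 2 mice). Somatic markers were highest in TDP-43 cKO replicate 1 (3034 CPM) and NELF-B cKO replicate 2 (2383 CPM), clustered histone genes were highest in the 2 NELF-B cKO mice (2327 and 1188 CPM), and ribosomal protein genes were highest in the 3 TDP-43 cKO mice (124400 to 140500 CPM).

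Nelfb, the gene deleted in one of the lines, was the only gene that passed the test. It lies on chr2:25199712-25211489 of GRCm38 on the minus strand. The NELF-B cKO mice held 152 and 160 Nelfb UMIs, or 6.40 and 6.29 CPM after TMM scaling. The TDP-43 cKO mice held 3084, 2264 and 2749 UMIs, or 53.7, 55.6 and 53.02 CPM, and the control mice held 46.9 to 66.4 CPM. The groups were far apart, with a log2 fold change of 3.09 ± 0.18 (SE) for TDP-43 cKO over NELF-B cKO in edgeR's quasi-likelihood test (adjusted p = 0.00166). The call held in 21 of 23 alternatives and was lost in edgeR with only the 5 cKO mice (adjusted p = 0.0532) and with the replicate block (adjusted p = 0.428), while the log2 fold change was at least 2.79 in all 23. In one of these, the removal of barcodes with the targeted gene, the removal itself brings the difference about. The level was alike in the SG range and in the meiotic range defined further on, at 6.05 and 5.97 CPM and at 4.80 and 5.00 CPM in the NELF-B cKO mice. The deleted exons include the first one, and the counts do not show where along the transcript the remaining UMIs lie. A Nelfb UMI was held by 4.28% and 10.2% of the chosen NELF-B cKO barcodes. The paper reports germ cells that escaped excision, and it took out cKO germ cells expressing the targeted gene, which was not done here. The chosen barcodes may thus include undeleted cells, and their part was not tested.

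Tardbp lies on chr4:148612382-148627019, on the minus strand. Its level was 84.3 and 91.6 CPM in the NELF-B cKO mice, 49.5, 48.6 and 49.5 CPM in the TDP-43 cKO mice, and 87.5 to 108 CPM in the control mice. The 3 TDP-43 cKO mice were below all 6 other mice. The log2 fold change for TDP-43 cKO over NELF-B cKO was -0.84 ± 0.11 (SE) with an unadjusted p of 5.35e-05, which did not pass edgeR's test over all genes (adjusted p = 0.3202) and did pass that of DESeq2 (adjusted p = 2.1e-05). Against the control mice Tardbp was called lower in the TDP-43 cKO mice (log2 fold change -1.05, edgeR adjusted p = 0.041). These libraries count transcripts from the 3′ end and exon 3 is an internal exon, so a transcript without it can still be counted, and this level is no check of the deletion.

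**Figure D2:**
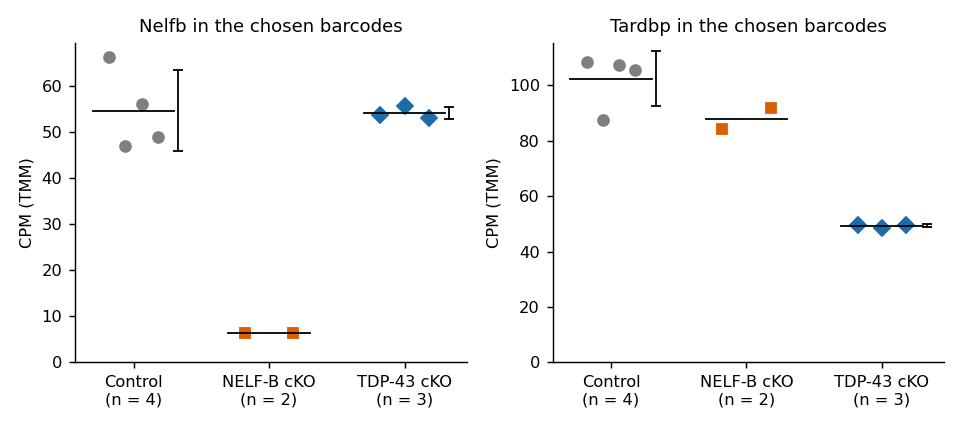
TMM-scaled CPM of Nelfb and Tardbp in the chosen barcodes (vertical axes from 0, one point per mouse, line at the group mean, bars 1 SD for groups of more than 2 mice). Nelfb was at about 6 CPM in both NELF-B cKO mice and above 46 CPM in all other mice, and Tardbp was below 50 CPM in the 3 TDP-43 cKO mice and above 84 CPM in all other mice.

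Across 21974 genes tested, edgeR called 1 gene higher in TDP-43 cKO (0.00455%), which was Nelfb, and none higher in NELF-B cKO. The next lowest adjusted p was 0.3202. At an unadjusted p under 0.05 stood 1097 genes (4.99%) higher in TDP-43 cKO and 2294 (10.4%) higher in NELF-B cKO. DESeq2 called 169 genes (0.769%) higher in TDP-43 cKO and 242 (1.1%) higher in NELF-B cKO. Without regard to any test, every TDP-43 cKO mouse was above both NELF-B cKO mice in 3243 genes (14.8%), and both NELF-B cKO mice were above every TDP-43 cKO mouse in 2407 (11%). These shares are the background for each count below, and a share of a list near them is no result about that list. Without NELF-B cKO replicate 2, edgeR called 1135 genes higher and 3563 lower in TDP-43 cKO, with the lone remaining NELF-B cKO mouse assumed to vary like the other groups. Against the controls, with which both contrasts share the same 4 mice, 1558 genes (7.09%) were called higher and 3518 (16%) lower in TDP-43 cKO. In NELF-B cKO against the controls none was called higher and 1 (0.00455%) lower, which was Nelfb, and 2004 were higher and 1207 lower at an unadjusted p under 0.05 in edgeR. DESeq2 called 258 higher and 258 lower in NELF-B cKO against the controls, with 1876 and 1831 at an unadjusted p under 0.05. In TDP-43 cKO against the controls it called 2583 higher and 5205 lower.

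Since no other gene was called, the genes described next are the 12 in each direction with the lowest unadjusted p among those of at least 10 CPM whose groups did not overlap, without the genes of the rule, the targeted genes and mitochondrial genes. Their edgeR adjusted p was 0.3202 throughout, and DESeq2 called all 24. The choice fixes that their groups are apart, so neither that nor their p supports anything further.

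Among the 12 genes higher in TDP-43 cKO, Gm32885, a long intergenic non-coding RNA gene, had the lowest unadjusted p. It was at 4.47 and 5.30 CPM in the NELF-B cKO mice, 14.6, 12.7 and 13.2 CPM in the TDP-43 cKO mice and 9.50 to 12.0 CPM in the control mice. Its log2 fold change was 1.47 ± 0.19 (SE), and the controls lay between the groups. Yeats4, a subunit gene of complexes that read and place histone acetylation and histone H2A.Z, was at 89.4 and 96.4 CPM in NELF-B cKO, at 145, 151 and 136 CPM in TDP-43 cKO and at 126 to 139 CPM in the controls. Mdk, which encodes the growth factor midkine, was at 12.8 and 14.9 CPM in NELF-B cKO, at 29.8, 31.3 and 31.2 CPM in TDP-43 cKO and at 17.6 to 25.7 CPM in the controls. For Yeats4 the TDP-43 cKO mice overlapped the controls, while for Mdk the controls lay between both cKO groups.

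Germ cell genes made up part of the same set. Gpat2, a mitochondrial acyltransferase gene of the piRNA pathway, was at 39.4 and 38.2 CPM in NELF-B cKO, at 57.9, 65.7 and 63.6 CPM in TDP-43 cKO and at 51.9 to 59.9 CPM in the controls. Tex101, which encodes a germ cell surface glycoprotein, was at 252 and 286 CPM in NELF-B cKO, at 456, 562 and 507 CPM in TDP-43 cKO and at 483 to 672 CPM in the controls. In both genes the NELF-B cKO mice were below all 7 other mice. Xlr, an X-linked lymphocyte-regulated family gene, was at 19.9 and 24.6 CPM in NELF-B cKO and at 40.2, 46.4 and 41.3 CPM in TDP-43 cKO, with the controls at 22.8 to 27.7 CPM. Here the TDP-43 cKO mice were the ones outside the controls, and Xlr was called higher in TDP-43 cKO against the controls (edgeR adjusted p = 0.041).

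The other 6 were Sorl1, a sorting receptor gene, 3830403N18Rik, Hpse2, a gene related to heparanase, Luzp4, Egfl7, which encodes a secreted protein of blood vessels, and Srgap1, a GTPase-activating protein gene. Their log2 fold changes ran from 0.75 (Egfl7) to 1.41 (Srgap1). Of all 12, the NELF-B cKO mice lay below and the TDP-43 cKO mice above every control mouse in 5, only NELF-B cKO lay outside the controls in 4, and only TDP-43 cKO did so in 3. Over all 21974 genes tested, both NELF-B cKO mice lay below every control in 2361 and above in 2911. All 3 TDP-43 cKO mice lay above every control in 4801 and below in 5782. Choosing genes whose cKO groups are apart favours such places, so these counts are a description.

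Among the 12 genes higher in NELF-B cKO, H1f0 came first by unadjusted p. It encodes the replacement linker histone H1.0, and was at 100 and 77.7 CPM in the NELF-B cKO mice, at 51.9, 55.1 and 53.4 CPM in the TDP-43 cKO mice and at 46.1 to 49.2 CPM in the controls. Its log2 fold change was -0.73 ± 0.12 (SE), and both cKO groups lay above every control mouse. Eif4g3, a translation initiation factor gene needed in meiosis, was at 271 and 211 CPM in NELF-B cKO, at 116, 140 and 149 CPM in TDP-43 cKO and at 199 to 225 CPM in the controls. Rfc2, a subunit gene of the replication clamp loader, was at 148 and 97.2 CPM in NELF-B cKO, at 46.1, 66.2 and 55.5 CPM in TDP-43 cKO and at 94.5 to 150 CPM in the controls. For Eif4g3 and Rfc2 the NELF-B cKO mice overlapped the controls, and both genes were called lower in TDP-43 cKO against the controls (edgeR adjusted p = 0.041 for each).

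Epcam, which encodes a cell adhesion protein of epithelia and SG, showed the opposite arrangement. It was at 263 and 227 CPM in NELF-B cKO, at 104, 129 and 131 CPM in TDP-43 cKO and at 127 to 182 CPM in the controls, so that the NELF-B cKO mice were above all others. Polr2b, the gene of the second largest subunit of RNA polymerase II, was at 184 and 150 CPM in NELF-B cKO, at 83.1, 99.8 and 104 CPM in TDP-43 cKO and at 114 to 144 CPM in the controls. Tmsb10, which encodes an actin monomer binding protein, was at 1251 and 1023 CPM in NELF-B cKO, at 715, 657 and 594 CPM in TDP-43 cKO and at 732 to 922 CPM in the controls. The controls lay between the cKO groups in Polr2b and Tmsb10, as in Pacsin1, an endocytosis gene, whose NELF-B cKO values of 401 and 186 CPM lay far from each other.

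Dnah10, an axonemal dynein gene, was at 31.6 and 26.8 CPM in NELF-B cKO and at 14.0, 10.9 and 10.99 CPM in TDP-43 cKO. The remaining members were Gm9993, annotated as antisense, a pair of clustered histone genes described below, and Trim17, a ubiquitin ligase gene at 188 and 84.1 CPM in NELF-B cKO and 47.6, 57.8 and 51.4 CPM in TDP-43 cKO. Trim17 and the histone gene Hist3h2a are annotated from the same base on the same strand (chr11, 58954685), so their UMIs may be mixed. The NELF-B cKO mice lay above and the TDP-43 cKO mice below every control mouse in 5 of the 12, only NELF-B cKO lay outside the controls in 2, only TDP-43 cKO in 4, and both lay above them in 1. These counts too are a description, to be read beside those over all genes given above.

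**Figure D3:**
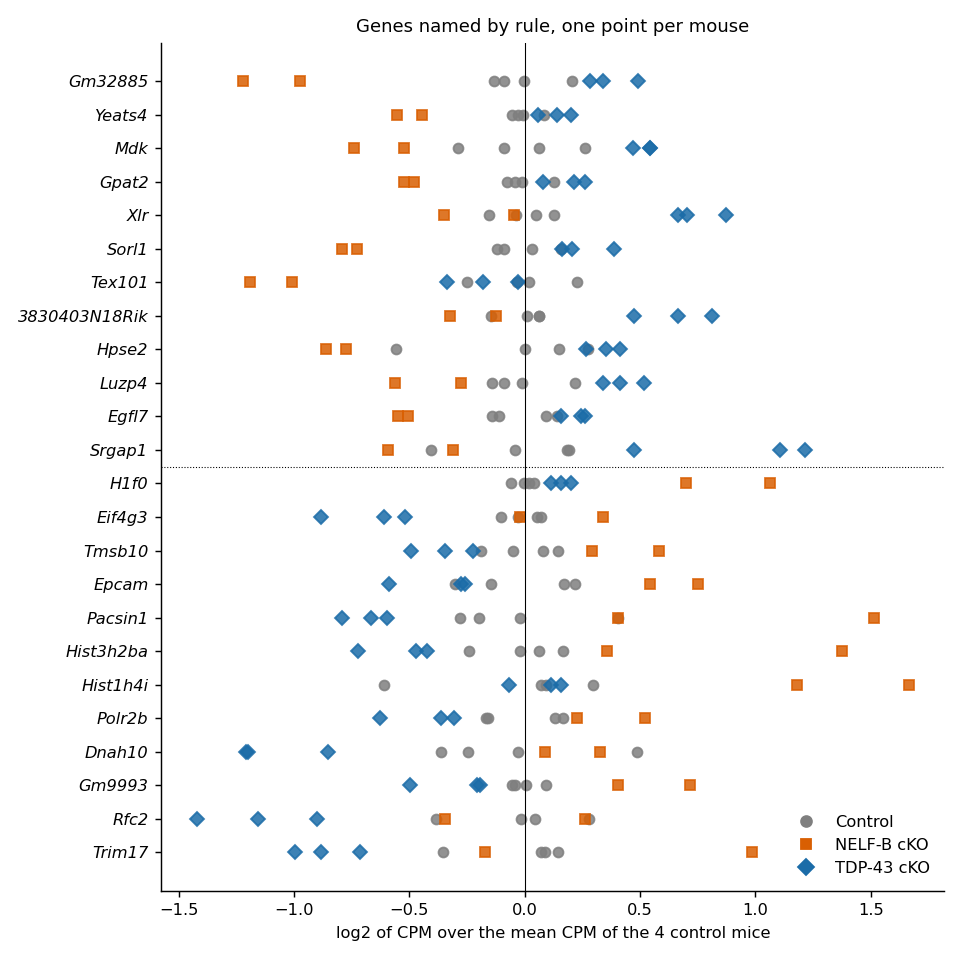
The 24 genes chosen by unadjusted p, each mouse plotted as log2 of its CPM over the mean CPM of the 4 control mice (horizontal axis, 0 at the control mean), with genes higher in TDP-43 cKO above the dotted line and genes higher in NELF-B cKO below it. For Gm32885 the controls (9.50 to 12.0 CPM) lie between NELF-B cKO and TDP-43 cKO, and for H1f0 both cKO groups lie above the controls (46.1 to 49.2 CPM).

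Chromosome X held 3 of the 12 genes higher in TDP-43 cKO (Xlr, 3830403N18Rik and Luzp4) and none of the 12 higher in NELF-B cKO, against 3.645% of all genes tested. Chromosome X gave 2.06% and 2.37% of the UMIs in NELF-B cKO, 2.73%, 2.33% and 2.45% in TDP-43 cKO, against 1.77% to 1.92% in the controls. The cKO groups overlapped in this share. Of the 801 X-linked genes tested, 191 (23.8%) were higher in every TDP-43 cKO mouse and 38 (4.74%) in both NELF-B cKO mice. The median log2 fold change was 0.15 over X-linked genes and -0.05 over the others.

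Clustered histone genes were the list with the most members higher in both NELF-B cKO mice than in every TDP-43 cKO mouse. The list was drawn up after the values had been seen, so its counts are a description. Summed, these genes stood at 2327 and 1188 CPM in NELF-B cKO, at 867, 978 and 921 CPM in TDP-43 cKO and at 948 to 1109 CPM in the controls. Both NELF-B cKO mice were above all 7 others, but replicate 2 only by little. The sums take in Hist1h2aa, a testis gene described below, and no sum was taken without it. Of 67 genes listed, 63 were tested: all 63 had a log2 fold change below 0 (62 under RLE size factors and in DESeq2), the median was -0.78, both NELF-B cKO mice were above every TDP-43 cKO mouse in 38, 30 had an unadjusted p under 0.05, edgeR called none and DESeq2 called 10. Against the controls the median log2 fold change was 0.88 in NELF-B cKO and -0.03 in TDP-43 cKO. Without NELF-B cKO replicate 1 the median was -0.38, with 54 of 63 below 0, and without replicate 2 it was -1.13. Without the 2 libraries rich in somatic RNA it was -1.14, and without barcodes holding over 0.25% somatic marker UMIs it was -0.80.

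The stem loop at which such mRNAs are normally cut is shown for those histone genes with values given here whose annotated transcripts hold it. It is given since the libraries prime on poly(A) tails and the annotated models of these genes run past it. Hist1h2aa, H1f0, H1fx and H3f3b, whose values are also given, had no match. The capitals mark the 16 bases of the stem loop within 26 bases of the reference genome (GRCm38), each in the 3′ UTR of the GENCODE model and read on the strand of the gene. The sites are chr13:22040961-22040986 for Hist1h4i on the minus strand, chr11:58949344-58949369 for Hist3h2ba on the plus strand, chr13:23739507-23739532 for Hist1h1c on the plus strand, chr13:23698084-23698109 for Hist1h4c on the minus strand, chr13:21722501-21722526 for Hist1h2bm on the plus strand and chr9:44335235-44335260 for H2afx on the plus strand.
Hist1h4i: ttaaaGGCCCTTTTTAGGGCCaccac
Hist3h2ba: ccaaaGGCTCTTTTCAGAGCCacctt
Hist1h1c: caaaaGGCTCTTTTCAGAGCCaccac
Hist1h4c: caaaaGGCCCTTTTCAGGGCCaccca
Hist1h2bm: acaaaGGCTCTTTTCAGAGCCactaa
H2afx: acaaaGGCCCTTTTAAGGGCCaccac

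The annotated Hist1h4i model goes on for 330 bases after the stem loop, that of Hist1h1c for 840 and that of Hist1h2bm for 46. A search of the transcripts on their own strand for the histone stem loop, allowing its known variable bases, found it in 46 of the 67 clustered genes and in 71 of 21630 protein-coding genes (0.328%), of which 24 are not in the histone lists. The 45 tested clustered genes with a match had a median log2 fold change of -0.74, and both NELF-B cKO mice were above every TDP-43 cKO mouse in 26. The 18 without a match, many of them with models that hold little beyond the coding part, had a median of -1.05 and 12 such members. A match is a description of the annotated letters, and the counts give no place of the UMIs along a transcript.

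By histone family the medians were -0.67 for 6 linker histone H1 genes, -0.88 for 16 H2A genes, -0.78 for 17 H2B genes, -0.68 for 11 H3 genes and -0.87 for 13 H4 genes. Both NELF-B cKO mice stood above every TDP-43 cKO mouse in 1, 11, 9, 8 and 9 of them. Since all 63 tested genes were below 0, a median below 0 in each of the 5 families follows from that. Single genes varied widely in how alike the 2 NELF-B cKO mice were. Hist1h4i, an H4 gene, was at 39.9 and 28.5 CPM in NELF-B cKO, at 13.6, 14.0 and 12.0 CPM in TDP-43 cKO and at 8.24 to 15.4 CPM in the controls (log2 fold change -1.37 ± 0.26, SE, unadjusted p = 0.000718 in edgeR's test over all genes). Hist3h2ba, an H2B gene outside the main cluster, was at 32.1 and 15.8 CPM in NELF-B cKO, at 7.48, 9.21 and 8.93 CPM in TDP-43 cKO and at 10.5 to 13.9 CPM in the controls. In Hist1h4i both NELF-B cKO mice were well clear of the controls, whereas in Hist3h2ba replicate 2 was only just above them.

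Hist1h1c, the gene of a linker histone that is also expressed outside S phase, was at 97.2 and 57.3 CPM in NELF-B cKO, at 36.0, 34.6 and 37.8 CPM in TDP-43 cKO and at 27.9 to 43.3 CPM in the controls. Hist1h4c, another H4 gene, was at 125 and 62.8 CPM in NELF-B cKO, at 40.8, 45.8 and 34.3 CPM in TDP-43 cKO and at 41.4 to 66.5 CPM in the controls. Hist1h2bm, an H2B gene, was at 79.0 and 33.01 CPM in NELF-B cKO, at 20.3, 27.5 and 26.1 CPM in TDP-43 cKO and at 25.1 to 37.4 CPM in the controls. In Hist1h4c and Hist1h2bm the second NELF-B cKO mouse fell within the controls. Hist1h2aa, a testis H2A gene, was at 477 and 174 CPM in NELF-B cKO and at 97.2, 129 and 117 CPM in TDP-43 cKO, and its 2 NELF-B cKO values differed more than those of the genes above.

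Replacement histone genes, whose mRNAs mostly have poly(A) tails, were a second list chosen after values had been seen. Both NELF-B cKO mice were above every TDP-43 cKO mouse in 7 of 10, and the median log2 fold change was -0.42. H2afx, the gene of the histone phosphorylated at DNA breaks and one whose mRNA has a stem loop as well as a poly(A) form, was at 188 and 156 CPM in NELF-B cKO, at 93.4, 121 and 116 CPM in TDP-43 cKO and at 106 to 128 CPM in the controls. H1fx was at 423 and 228 CPM in NELF-B cKO and at 143, 169 and 170 CPM in TDP-43 cKO. H3f3b, an H3.3 gene, was at 3741 and 2964 CPM in NELF-B cKO and at 1876, 2346 and 2198 CPM in TDP-43 cKO. In the other 3 of the 10 the groups overlapped.

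DNA replication genes had a median close to that of all genes. Of 18, every TDP-43 cKO mouse was above both NELF-B cKO mice in 6 and the reverse held in 2, with a median log2 fold change of 0.02, of 0.05 without NELF-B cKO replicate 1 and of -0.01 without replicate 2. Of 16 mitotic and G2/M genes, both NELF-B cKO mice were above in 4 (Mki67, Birc5, Cenpe and Kif11) and none was higher in every TDP-43 cKO mouse, with a median of -0.19, of -0.03 without NELF-B cKO replicate 1 and of -0.08 without TDP-43 cKO replicate 1. Mki67, a marker of cycling cells, was at 244 and 197 CPM in NELF-B cKO, at 122, 148 and 169 CPM in TDP-43 cKO and at 144 to 188 CPM in the controls. None of the genes of either list was called by edgeR, and DESeq2 called Rfc4 (112 and 120 CPM in NELF-B cKO, 148, 166 and 154 CPM in TDP-43 cKO). Rfc2, which DESeq2 called higher in NELF-B cKO, is described above and is not in these lists.

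To hold the mixture of stages closer, the chosen barcodes were split by their marker UMIs. The SG range held barcodes with more UMIs of Crabp1, Dmrt1 and Sohlh1 than of Prdm9, Dmc1 and Prss50, and the meiotic range the reverse; both are ranges and not cell types. The SG range had 839 and 534 barcodes in NELF-B cKO and 958, 1053 and 1203 in TDP-43 cKO, and the meiotic range had 712 and 354, and 581, 857 and 991. In both ranges edgeR called 1 gene, Nelfb, higher in TDP-43 cKO (0.00489% of 20457 in the SG range, 0.00544% of 18393 in the meiotic range). All 24 genes named above kept their direction in both ranges, with groups apart in 24 in the SG range and 23 in the meiotic range. Both ranges are cut from the same barcodes in which these genes were chosen, so this gives no separate support.

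Here too agreement between the ranges gives no separate support, since the histone lists were drawn up with values of these barcodes seen. Clustered histone genes had medians below 0 on both sides of the split. Summed, they stood at 1928 and 949 CPM in NELF-B cKO, at 628 to 743 CPM in TDP-43 cKO and at 680 to 971 CPM in the controls in the SG range, where NELF-B cKO replicate 2 lay within the controls. The median log2 fold change was -0.83 over 59 genes in the SG range, with both NELF-B cKO mice above every TDP-43 cKO mouse in 33 (12.2% of all genes), and -0.96 over 56 genes in the meiotic range, with 36 such genes (6.19% of all genes). The 10 replacement histone genes held 7 such genes in the SG range (median -0.35) and 3 in the meiotic range (median -0.20). In each range 1 of these 10 lay the other way. Hist1h4i was at 40.8 and 27.5 CPM in NELF-B cKO and 12.8, 14.1 and 12.2 CPM in TDP-43 cKO in the SG range, and at 40.0 and 33.2 CPM against 16.8, 15.9 and 12.9 CPM in the meiotic range. Hist1h1c was at 70.7 and 37.6 CPM against 23.5, 25.2 and 28.1 CPM in the SG range, and at 149 and 109 CPM against 69.8, 59.9 and 61.1 CPM in the meiotic range. Levels of Hist1h1c were thus higher in the meiotic range in all 5 cKO mice. Its log2 fold change was -1.08 in the SG range and -1.02 in the meiotic range, and the change between the ranges was 0.12 ± 0.26 (SE), which did not pass edgeR's test (adjusted p = 0.887). In the nearly empty droplets the clustered histone genes summed to 636 and 665 CPM in NELF-B cKO, to 600 to 671 CPM in TDP-43 cKO and to 374 to 488 CPM in the controls, and the cKO groups overlapped.

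**Figure D4:**
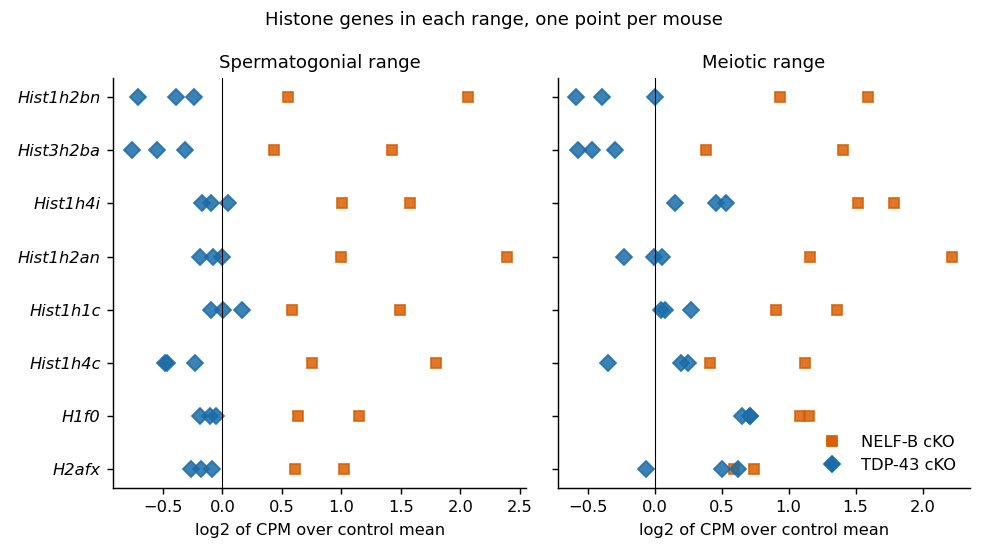
Log2 of CPM over the control mean (horizontal axes) for 8 histone genes in the SG range (left) and the meiotic range (right), with one point per cKO mouse. Both NELF-B cKO mice lie to the right of the 3 TDP-43 cKO mice in all 8 genes in the SG range and in all but H2afx in the meiotic range, for Hist1h4i at 27.5 CPM or more against at most 16.8 CPM. The 8 genes were picked with their values known, so this is a description. Over all clustered histone genes tested, 33 of 59 lay this way in the SG range and 36 of 56 in the meiotic range.

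Whether the contrast itself differed between the ranges was tested with an interaction in edgeR, with the mouse as a block. Of 20387 genes none was called, and at an unadjusted p under 0.05 the log2 fold change was higher in the meiotic range in 1875 genes and lower in 467. In this fit the median change over all genes was itself 0.166, whereas the separate fits had medians of -0.022 in the SG range and 0.002 in the meiotic range. The uneven split therefore goes with a shift of all genes, whose source was not tested. The 3 lowest p-values belonged to Morrbid, Slc25a13 and Pet2, each with an adjusted p of 0.0699. Morrbid, a long non-coding RNA gene known from myeloid cells, was at 48.4 and 21.3 CPM in NELF-B cKO and 8.20, 8.12 and 7.87 CPM in TDP-43 cKO in the SG range, and at 5.66 and 2.58 CPM against 7.55, 11.3 and 8.58 CPM in the meiotic range. Its groups were apart in opposite directions, with a change between the ranges of 3.35 ± 0.41 (SE, log2). Slc25a13, a mitochondrial aspartate-glutamate carrier gene, was at 402 and 123 CPM against 87.4, 116 and 107 CPM in the SG range and overlapped in the meiotic range. Pet2, an X-linked testis gene, was at 111 and 196 CPM in NELF-B cKO against 256, 448 and 461 CPM in TDP-43 cKO in the meiotic range, and at 31.0 and 43.5 CPM against 27.8, 28.8 and 28.4 CPM in the SG range.

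Ribosomal protein genes were the list with the most members higher in TDP-43 cKO, and this list too was chosen after values had been seen. Summed, they stood at 84100 and 115600 CPM in NELF-B cKO, at 140500, 133900 and 124400 CPM in TDP-43 cKO and at 98950 to 112600 CPM in the controls. The NELF-B cKO mice lay on either side of the controls, and all 3 TDP-43 cKO mice were above every other mouse. All 78 had a log2 fold change above 0 (median 0.43), every TDP-43 cKO mouse was above both NELF-B cKO mice in 55, and 48 had an unadjusted p under 0.05, while edgeR called none and DESeq2 called 3. Rps9 was at 632 and 884 CPM in NELF-B cKO, at 1248, 1181 and 1061 CPM in TDP-43 cKO and at 833 to 903 CPM in the controls. Without NELF-B cKO replicate 1 the list's median was 0.22, with 73 of 78 above 0, and without replicate 2 it was 0.72. Such a large share of all UMIs takes part in setting the CPM of other genes.

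X-linked multicopy genes of germ cells, among them the Rhox homeobox, Xlr and Magea families, were likewise chosen after values had been seen. Of 42 tested, every TDP-43 cKO mouse was above both NELF-B cKO mice in 21 and the reverse held in 1, with a median log2 fold change of 0.45, and DESeq2 called 6. Magea10 was at 3.62 and 7.03 CPM in NELF-B cKO, at 12.7, 14.0 and 14.6 CPM in TDP-43 cKO and at 6.50 to 7.32 CPM in the controls. Rhox2h was at 3.92 and 4.28 CPM in NELF-B cKO, at 7.08, 10.1 and 9.59 CPM in TDP-43 cKO and at 3.86 to 4.65 CPM in the controls. In both genes the TDP-43 cKO mice were above all 6 others. Near-identical copies share reads, so the split among members is uncertain. The median was 0.26 over 39 genes in the SG range and 0.83 over 38 in the meiotic range.

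Genes of the p53 response and apoptosis had a median log2 fold change of 0.54 over 18 members. Every TDP-43 cKO mouse was above both NELF-B cKO mice in 9 and the reverse held in none, 6 had an unadjusted p under 0.05, edgeR called none and DESeq2 called 3 (Ccng1, Eda2r and Phlda3). Ccng1, which encodes cyclin G1, was at 23.3 and 34.9 CPM in NELF-B cKO, at 54.0, 57.7 and 54.4 CPM in TDP-43 cKO and at 27.8 to 40.9 CPM in the controls. Eda2r, a TNF receptor family gene, was at 0.969 and 1.65 CPM in NELF-B cKO, at 3.03, 4.67 and 3.41 CPM in TDP-43 cKO and at 0.915 to 1.11 CPM in the controls. Bax, a gene of mitochondrial cell death, was at 130 and 182 CPM in NELF-B cKO, at 227, 214 and 212 CPM in TDP-43 cKO and at 124 to 168 CPM in the controls. In these 3 genes the TDP-43 cKO mice were above all others, and each was called higher in TDP-43 cKO against the controls (edgeR adjusted p = 0.0432, 0.041 and 0.041). The median of the list was 0.10 without NELF-B cKO replicate 1 and 0.92 without replicate 2.

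Transcripts of the mitochondrial genome, of which the rule limits the total, had a median log2 fold change of 0.33 over 13 genes, with 7 higher in every TDP-43 cKO mouse and none in both NELF-B cKO mice. mt-Nd2, a subunit gene of respiratory complex I and the only one that DESeq2 called, was at 2106 and 2310 CPM in NELF-B cKO, at 3325, 3722 and 3534 CPM in TDP-43 cKO and at 2159 to 2747 CPM in the controls.

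Genes of meiotic recombination were mixed. In double-strand break formation, every TDP-43 cKO mouse was above both NELF-B cKO mice in 5 of 13 and the reverse held in 1, with a median of 0.10, of 0.16 without NELF-B cKO replicate 1 and of -0.06 without replicate 2. Rec114, a partner of the break-forming SPO11 machinery, was at 29.9 and 39.7 CPM in NELF-B cKO, at 59.6, 56.3 and 56.97 CPM in TDP-43 cKO and at 35.5 to 48.5 CPM in the controls. Mei4, which acts with Rec114, was at 28.5 and 25.8 CPM in NELF-B cKO, at 37.1, 40.0 and 40.5 CPM in TDP-43 cKO and at 29.3 to 40.5 CPM in the controls. DESeq2 called both, and edgeR called neither. In strand exchange and recombination the counts were 5 and 2 of 18, in the piRNA pathway, which silences transposons in germ cells, 6 and 0 of 17, in crossover maturation 3 and 1 of 12, and in the synaptonemal complex and chromosome axis 2 and 1 of 11, with edgeR calling none. Genes of pachytene and later spermatocytes had a median of -0.95 over 18 with no member whose groups were apart, a median of 0.54 without NELF-B cKO replicate 1 and of -1.62 without replicate 2.

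Among 21 markers of undifferentiated SG, 15 had a log2 fold change above 0 and 6 below 0. The groups were apart in few of them, with 2 higher in every TDP-43 cKO mouse and 2 in both NELF-B cKO mice. Lin28a, which encodes an RNA-binding protein of progenitor SG, was at 395 and 186 CPM in NELF-B cKO, at 53.9, 94.3 and 85.5 CPM in TDP-43 cKO and at 81.6 to 203 CPM in the controls. Utf1, a chromatin factor gene of the least differentiated SG, was at 1.81 and 5.74 CPM in NELF-B cKO, at 12.1, 10.6 and 8.89 CPM in TDP-43 cKO and at 3.73 to 5.67 CPM in the controls. These values lay on opposite sides, and the median of the list was 0.34, -0.07 without NELF-B cKO replicate 1 and 1.08 without replicate 2. Kit, the receptor gene of differentiating SG, was at 98.1 and 57.9 CPM in NELF-B cKO and at 49.9, 52.1 and 52.6 CPM in TDP-43 cKO. It was the only one of 12 genes of SG differentiation higher in both NELF-B cKO mice, while 2 (Lmo1 and Sohlh2) were higher in every TDP-43 cKO mouse and edgeR called none. The median log2 fold change of these 12 was 0.10, -0.05 without NELF-B cKO replicate 1 and 0.34 without replicate 2.

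The partners of both deleted factors are given next. Of 10 genes of NELF, DSIF and P-TEFb, the factors that set and release the pause, Nelfcd was higher in every TDP-43 cKO mouse (42.7 and 45.7 against 50.9, 52.7 and 51.2 CPM) and Supt5 in both NELF-B cKO mice (221 and 213 against 174, 188 and 192 CPM), with a median log2 fold change of 0.04, of -0.08 without NELF-B cKO replicate 1 and of 0.24 without replicate 2. Of 17 RNA-binding protein genes related to TDP-43, 1 lay apart in each direction, with a median of 0.01. In the SG range both NELF-B cKO mice were above every TDP-43 cKO mouse in 6 of these 17, against 12.2% of all genes. There 1 lay the other way, and the median was -0.09. In the meiotic range they were above in 1, against 6.19% of all genes, with 2 the other way and a median of 0.21. Of 12 genes reported elsewhere as TDP-43 splicing targets, 4 were higher in every TDP-43 cKO mouse and none in both NELF-B cKO mice, with a median of -0.01, and UMI counts per gene do not measure splicing.

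**Figure D5:**
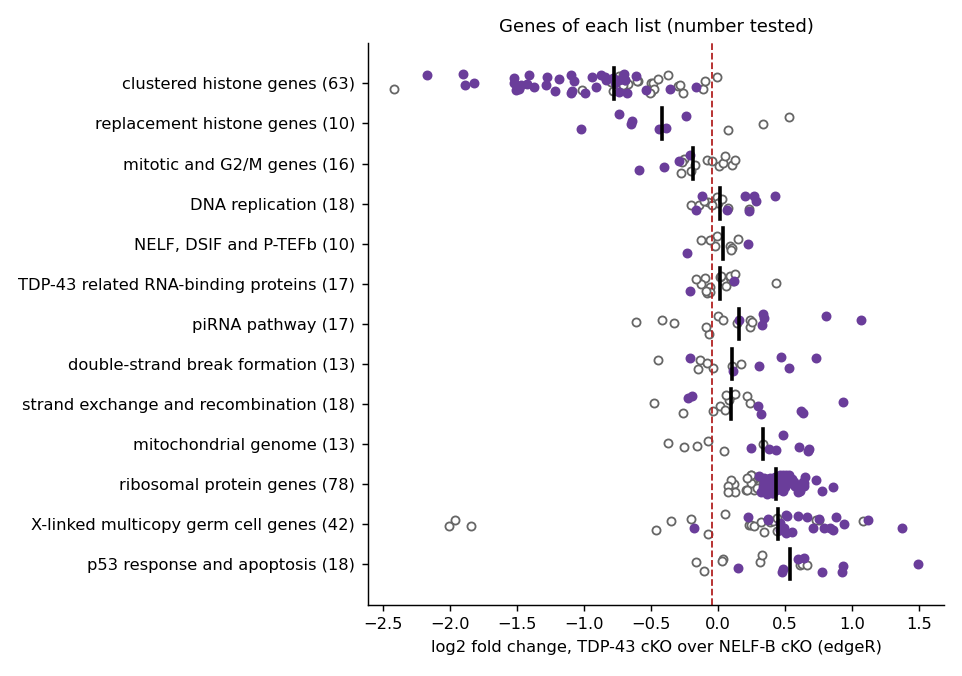
Log2 fold change for TDP-43 cKO over NELF-B cKO (edgeR, horizontal axis) of the tested genes of 13 lists, filled where all mice of one group lie above all of the other, with a bar at each list's median and a dashed line at the median of all genes (-0.05). Clustered histone genes (median -0.78) lie to the left and ribosomal protein, X-linked multicopy and p53 response genes (medians 0.43, 0.45 and 0.54) to the right.

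Genes of other cell types are given beside these results, and their part in them was not tested. Sertoli markers had a median log2 fold change of 0.85 with 5 of 9 higher in every TDP-43 cKO mouse, Leydig markers -0.99 with 1 of 6 higher in both NELF-B cKO mice, and immune markers -1.01 with 2 of 9. The median of Sertoli markers was 0.53 without NELF-B cKO replicate 1, 1.49 without replicate 2, 0.52 without TDP-43 cKO replicate 1 and -0.82 without barcodes holding the targeted gene. That removal took 71 and 95 chosen barcodes in NELF-B cKO but 989, 1020 and 1243 in TDP-43 cKO, so it was unequal between the groups. The median of Leydig markers ran from -2.38 without TDP-43 cKO replicate 1 to -0.20 without NELF-B cKO replicate 2, and that of immune markers from -1.66 to -0.45 without the same libraries. Barcodes with over 0.25% somatic marker UMIs made up 5.84% and 12.8% of the chosen ones in NELF-B cKO. In TDP-43 cKO they made up 20.9%, 6.75% and 8.22%. Without them the medians were -0.15 for Sertoli, -1.32 for Leydig and -0.55 for immune markers. That removal uses these same markers, so their medians are an outcome of it. The medians of ribosomal protein, p53 response and X-linked multicopy genes were then 0.52, 0.53 and 0.51. The part of somatic RNA in these lists was not tested. Of 20 interferon response genes, a list chosen after values had been seen, 2 were higher in both NELF-B cKO mice. Their median was -0.21, -0.82 without NELF-B cKO replicate 1, 0.82 without replicate 2, -0.71 without TDP-43 cKO replicate 1 and 0.39 without the barcodes of high somatic share. Cxcl9, a chemokine gene, was at 2.02 and 14.7 CPM in NELF-B cKO, at 0.748, 0.663 and 0.366 CPM in TDP-43 cKO and at 0.102 to 0.678 CPM in the controls, and its level was highest in NELF-B cKO replicate 2, the NELF-B library with more somatic RNA.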

How the data were processed

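The deposited values are whole UMI counts for each gene in each barcode. The authors produced them with Cell Ranger (per the file headers, Cell Ranger 4; the submitters' processing notes name versions 6.1.1 and 7.0.0, Seurat 4.2.0, DESeq2 1.36 and the mm10 build), before any choice of cells. The counts were used as deposited, and no doublet caller was run. UMIs of the chosen barcodes were summed per mouse, giving 10120125 to 58838994 UMIs. All 9 mice entered 1 fit per set of barcodes, by edgeR's quasi-likelihood method (version 4.0.16, R 4.3.3) after its default filter on low counts and TMM scaling. Tests were two-sided, with Benjamini-Hochberg adjustment and calls at an adjusted p under 0.05. Standard errors were derived from the fold change and its F statistic. DESeq2 1.42.0 was the other tool. The script was tested on simulated data. CPM of single genes are TMM-scaled, and summed list levels are plain CPM. Each mouse gave 1 library. With 3 against 2 mice there are only 10 splits, so an exact permutation test cannot reach a p under 0.05, and no such test is given.

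The members and lists were chosen with earlier results of these data known. Of 32285 genes, 32235 were matched by ID to GENCODE M21 (GRCm38), the source of positions and sequences. Genes are named by list and by lowest unadjusted p, as no other gene was called: 12 in each direction with a mean of at least 10 CPM and groups that do not overlap, and the 3 with the lowest adjusted p for the difference between the ranges. Barcodes with equal marker sums were in neither range. Alternatives were another tool, scaling or filter, other marker limits, thinning of each barcode to 4000 UMIs, equal ranges, removal of barcodes with the targeted gene or with somatic markers, and leaving out each mouse.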

Additional observations from a re-analysis of the deposited data

Results flagged for a closer look

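Of 78 control values tested for a sample far from the others, 4 had a single control mouse beyond Dixon's limit, where chance flags about 1 group in 20, so that a number of this size carries no weight. Hist1h1c was at 27.9 CPM in the far control mouse and at 41.0 to 43.3 CPM in the other 3 (gap over range 0.849). Tardbp was at 87.5 CPM against 105.6 to 108 CPM (0.862). Tex14, which encodes a protein of the bridges between germ cells, was at 381.5 CPM against 445 to 454 CPM (0.88). Trim17 was at 74.1 CPM against 99.6 to 105 CPM (0.834). In all 4 genes the far control mouse was the lowest of its group.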

How the results depend on the processing

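The number of calls changed most when NELF-B cKO replicate 2 was left out, which leaves replicate 1 alone in its group. These 2 mice differed from each other. The median log2 fold change of round spermatid genes was -4.01 without replicate 2 and 0.41 without replicate 1. Genes called higher and lower in TDP-43 cKO were 1 and 0, and leaving out 1 mouse at a time gave 1 to 1135 and 0 to 3563 in all chosen barcodes, 1 to 519 and 0 to 353 in the SG range, and 0 to 229 and 0 to 1097 in the meiotic range, where each highest value was the one without NELF-B cKO replicate 2. Without control replicate 1 the count of higher genes was 2. In the meiotic range the counts were 0 and 0 without NELF-B cKO replicate 1, and 8 and 1 without TDP-43 cKO replicate 1. A group left with 1 mouse was assumed to vary like the others. Without NELF-B cKO replicate 2 and TDP-43 cKO replicate 1 together, an alternative chosen after seeing the data, 1129 and 3829 were called. DESeq2 called 169 and 242, and 146 and 140 and 121 and 73 in the 2 ranges. Thinning to 4000 UMIs gave 77 and 65, and leaving out barcodes with UMIs of 3 or more somatic markers 4 and 8. Leaving out barcodes with the targeted gene gave 1 and 1, which were Nelfb and Tardbp, as that removal itself brings about. Barcodes of low somatic share, added after seeing the data, gave 1 and 1 in the SG range, the gene higher in NELF-B cKO being Epcam. With only the 5 cKO mice the counts were 0 and 0, with 653 and 713 at an unadjusted p under 0.05. The cause of these differences was not tested. With the stricter limits of 0.01 on the adjusted p and 1 on the size of the log2 fold change, edgeR called 1 and 0 and DESeq2 29 and 49.

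Deviations from the group means correlated at -0.697 and -0.563 between same-numbered mice of the cKO groups, at -0.139 to -0.077 between controls and TDP-43 cKO, and at 0.133 and 0.364 between controls and NELF-B cKO. Not every pair was positive, so the numbers were not taken to pair the mice. With 2 NELF-B cKO mice their deviations mirror each other, so NELF-B cKO replicate 1 with TDP-43 cKO replicates 2 and 3 (0.563 and 0.579) and NELF-B cKO replicate 2 with TDP-43 cKO replicate 1 (0.697) are no separate observations. With the replicate block the counts were 0 and 0, with 486 and 618 at an unadjusted p under 0.05 in edgeR.

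Most genes named here were chosen because their groups were apart in these mice, so that their keeping a direction is no sign of stability. The direction turned for Slc25a13 without NELF-B cKO replicate 1 (log2 fold changes between -1.55 and 0.031 as each mouse was left out). The depth limits low genes: 4 of the 67 clustered histone genes had too few UMIs to be tested.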

Other observations

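Beyond the gene groups described, genes of glycolysis were mixed. For TDP-43 cKO over NELF-B cKO, the log2 fold change was above 0 in 9 of 15 and below 0 in 6. The TDP-43 cKO mice lay above every control mouse in 9 of the 15 and below every control mouse in 6. In 4 (Eno1, Gapdh, Gpi1 and Hk2) every TDP-43 cKO mouse was above both NELF-B cKO mice. None was higher in both NELF-B cKO mice, and edgeR called none. The median log2 fold change of the list was 0.31. This median was 0.15 without NELF-B cKO replicate 1, 0.65 without replicate 2, 0.11 without TDP-43 cKO replicate 1 and -0.36 without barcodes holding the targeted gene. The last of these removals took far more barcodes in TDP-43 cKO than in NELF-B cKO, as given above. Phgdh, the first enzyme gene of serine synthesis, was at 38.9 and 86.5 CPM in NELF-B cKO, at 136, 104 and 111 CPM in TDP-43 cKO and at 55.6 to 62.2 CPM in the controls. Immediate early genes, which respond to handling and dissociation of cells, had a median of -0.07 between the cKO groups, of -0.56 without NELF-B cKO replicate 1 (13 of 13 below 0), of 0.92 without replicate 2 (12 of 13 above 0), of -0.43 without TDP-43 cKO replicate 1, of 0.08 without TDP-43 cKO replicate 2 and of 0.12 without replicate 3. Against the controls their medians were 1.40 in NELF-B cKO and 1.28 in TDP-43 cKO, and both contrasts share the same control mice. Of 15 cholesterol synthesis genes, 2 were higher in both NELF-B cKO mice and none in every TDP-43 cKO mouse, with a median of -0.07, of -0.31 without NELF-B cKO replicate 1, of 0.18 without replicate 2, of -0.31 without TDP-43 cKO replicate 1 and of 0.02 without TDP-43 cKO replicate 3.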
